A study of Mus musculus with 6 samples.

Results

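A set of 8 genes of Schwann cells and other glia was followed through islet RNA: S100b, Gfap, Sox10, Ngfr, Cdh19, Cryab, Mbp and Gpr37l1. They were taken by symbol from a table of 55536 genes, and 8 of 8 were found in it. The study sequenced polyadenylated RNA from whole pancreatic islets of C57B1/6J mice to ask which genes the transcription factor KLF4 controls in alpha cells, the islet cells that make glucagon. Control mice were Klf4+/+;Gcg-iCre and mutant mice were Klf4fl/fl;Gcg-iCre, with 3 libraries each. Both groups therefore carried the Gcg-iCre driver, in which glucagon gene sequences direct the Cre recombinase, so that the deletion was aimed at alpha cells and not at glia. The labels used here give no age, no sex and no statement on whether a library came from 1 animal or a pool, so the p-values measure only the spread between these libraries.

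Schwann cells are the glia of peripheral nerves. They arise from the neural crest, wrap or ensheathe axons, and answer to neuregulin from the axon through the ERBB receptors. In the pancreas, Schwann cells without myelin form a thin sheath around each islet and follow the sympathetic, parasympathetic and sensory fibres that enter it. Because whole islets were sequenced, their RNA was measured together with that of the endocrine, vascular and connective tissue cells, and fewer cells of a type cannot be told apart from less RNA per cell.

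None of the 8 genes was called higher or lower in the knockout libraries. Adjusted p-values in DESeq2, with Benjamini-Hochberg adjustment over all genes, ran from 0.517 for Gfap to 0.996 for Cdh19. Of all genes given an adjusted p, 2.19% passed the threshold of 0.05 (1.53% higher and 0.657% lower in the knockouts). With edgeR's quasi-likelihood test 0 of the 8 passed as well, with adjusted p-values from 0.637 to 0.999, against 0.115% of all genes (0.0952% higher and 0.0198% lower). At an unadjusted p under 0.05 the count was again 0 of 8 in DESeq2 and 0 of 8 in edgeR. The groups overlapped for every member. Over the 15811 genes that averaged 50 or more normalized counts, control and knockout values did not overlap for 18.0% (9.42% higher and 8.54% lower). With 8 genes, a count of 0 cannot be set apart from that share. Normalized counts here are the deposited counts divided by DESeq2 size factors. The median log2 fold change of the 8 genes was -0.055, beside -0.0066 over those 15811 genes. The members also varied between libraries of the same genotype.

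The whole-series checks were as follows. Libraries held 101277200 to 110243918 counts. The targeted gene, Klf4, had normalized counts of 3148, 2879 and 2015 in the controls, a range that held the knockout values of 2340, 2540 and 2277 (DESeq2 log2 fold change -0.17, SE 0.15, adjusted p = 0.774). Gene-level counts do not show whether the reads came from the floxed part. Xist lay between 77938 and 108105 in the controls and between 12.4 and 30.2 in the knockouts. The Y-linked genes Ddx3y, Uty, Eif2s3y and Kdm5d had 0 counts in every control and at least 2881 normalized counts in every knockout library. The controls thus had a female pattern of these transcripts and the knockouts a male pattern. Every comparison of knockout with control is therefore also one of sex, and the 2 cannot be told apart. Knockout replicate 1 stood apart on the first principal component, at 62.5, with knockout replicates 2 and 3 at 20.2 and -7.00 and the controls between -25.8 and -24.3. Summed acinar markers ran from 471849 to 947463 normalized counts in the controls and from 1203000 to 1713770 in the knockouts, and all 6 acinar genes were higher in every knockout library. Summed fibroblast markers ran from 47257 to 63144 and from 92026 to 98791. The part of these shifts in the values below was not tested.

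Levels between genes were compared per length, as TPM, counts divided by the merged exon length of the gene and scaled to the same sum in every library. Mbp was highest, at a median of 27.3 TPM over the 6 libraries (26.4 to 30.7). Cryab followed at 15.9 TPM (13.0 to 18.1). Sox10, Cdh19, Ngfr, Gpr37l1 and S100b came next with medians of 4.82, 4.42, 4.14, 4.11 and 3.92 TPM. Each of these 5 overlapped its neighbour in the order, from 2.55 TPM at the lowest to 6.17 at the highest, so their order does not hold beyond the spread between libraries. Gfap was lowest, at 1.21 TPM (1.01 to 2.50), below the whole range of S100b. The genes thus fell into 4 levels that did not overlap: Mbp, Cryab, the group of 5, and Gfap.

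The label was checked against other glial genes. Foxd3, a neural crest factor kept in Schwann cell precursors and not among the 8, averaged 3.36 TPM over the 6 libraries. It was named after its values were seen. Of the other 7 listed regulators of the lineage, Nab1 and Nab2 were higher, at 15.3 and 8.68 TPM. The rest were lower, with Sox2 at 0.30, Egr2 at 0.23, Pou3f1 at 0.11 and Tfap2a at 0.068 TPM, and Pax3 had 0 counts in all 6 libraries. Of 8 markers of central glia, the oligodendrocyte genes Mobp, Olig2 and Opalin had 0 counts in all 6 libraries, and Mog and Olig1 averaged 0.022 and 0.018 TPM. Aqp4, the water channel of astrocytes, was the most abundant of that list at 13.8 TPM. It did not differ past the threshold (DESeq2 adjusted p = 0.407, with a log2 fold change of -0.29 and an SE of 0.15). Slc1a2, a glutamate transporter of astrocytes, averaged 0.035 TPM. Aldh1l1, a folate enzyme of astrocytes that other tissues also make, averaged 1.45 TPM. It stood at 93.2, 90.2 and 76.4 normalized counts in the controls and at 1048, 153 and 239 in the knockouts, so the groups did not overlap and knockout replicate 1 was far the highest. Its log2 fold change of 2.47 ± 0.82 (SE) did not pass (DESeq2 adjusted p = 0.0865), and 1 gene of the central glia list passed, upward, without knockout replicate 1 and without knockout replicate 2.

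RefSeq promoters on build GRCm38.p6 were matched for 4 of the 8 genes: S100b, Gfap, Ngfr and Gpr37l1. Of these, 3 are shown because they set a promoter with no match beside those holding the G-rich motif bound by KLF factors, the family of the deleted protein. Each is the 250 bases upstream of the RefSeq start, 5′ to 3′ on the gene's strand, with the motif GGGNGNGG on either strand in capitals. They lie at chr10:76253586-76253835 (plus strand), chr11:102897201-102897450 (minus strand) and chr11:95587699-95587948 (minus strand).
S100b: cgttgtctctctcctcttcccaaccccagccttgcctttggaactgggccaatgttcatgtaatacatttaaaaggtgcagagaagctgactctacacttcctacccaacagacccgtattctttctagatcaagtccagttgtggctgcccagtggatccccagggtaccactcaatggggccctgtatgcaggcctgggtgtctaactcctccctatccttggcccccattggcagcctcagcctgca
Gfap: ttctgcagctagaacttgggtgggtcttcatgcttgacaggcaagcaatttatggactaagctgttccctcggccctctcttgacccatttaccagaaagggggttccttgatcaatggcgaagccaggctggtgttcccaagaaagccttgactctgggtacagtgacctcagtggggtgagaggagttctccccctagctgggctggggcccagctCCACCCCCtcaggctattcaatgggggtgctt
Ngfr: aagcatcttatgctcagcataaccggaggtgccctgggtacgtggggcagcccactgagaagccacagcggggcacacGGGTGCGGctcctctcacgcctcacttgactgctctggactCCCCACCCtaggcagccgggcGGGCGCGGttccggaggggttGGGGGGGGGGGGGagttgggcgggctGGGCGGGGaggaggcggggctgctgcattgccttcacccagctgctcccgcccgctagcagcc
The motif was found at 1 position in Gfap, at 10 positions, some of them overlapping, in Ngfr, and at 0 in S100b and Gpr37l1. Of all 32851 RefSeq promoters of this length, 45.9% held it, so a match is common. The SOX motifs ACAAAG and ACAATG, the heat shock motif GAANNTTC and TATAAA were found in none of the 4 windows, against 16.5%, 10.7%, 6.69% and 12.4% of all promoters, both strands searched. These are matches of letters and not binding sites.

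Sox10 (ENSMUSG00000033006, chromosome 15, 79154908 to 79165240, minus strand, GRCm38) encodes the transcription factor that directs the Schwann cell lineage from the neural crest onward. Control libraries 1 to 3 had normalized counts of 752, 801 and 516, and knockout libraries 1 to 3 had 501, 586 and 689. The lowest control lay beside the lowest knockout, and the groups overlapped. Means were 689 ± 152 and 592 ± 94.1 (SD, n = 3 each). The log2 fold change of -0.22 ± 0.19 (SE) had a 95% interval from -0.59 to 0.15 and did not pass (DESeq2 adjusted p = 0.768). A fall of more than 33.7% or a rise of more than 11.0% lay outside the interval.

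A further 3 members encode proteins of the cell surface. Ngfr (ENSMUSG00000000120, chromosome 11, 95568818 to 95587735, minus strand) encodes the p75 neurotrophin receptor of Schwann cells, which is also made by sympathetic neurons and stellate cells. Its normalized counts were 549, 680 and 770 in the controls, against 438, 505 and 902 in the knockouts. The knockout libraries lay on both sides of the control range, 2 below it and 1 above. Means were 666 ± 111 and 615 ± 251 (SD, n = 3 each), and the log2 fold change was -0.12 ± 0.24 (SE, 95% interval -0.59 to 0.36, DESeq2 adjusted p = 0.944).

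Cdh19 (ENSMUSG00000047216, chromosome 1, 110888326 to 110977584, minus strand) encodes a cadherin found in Schwann cell precursors and nerve ensheathing cells. It stood at 926, 836 and 644 normalized counts in the controls and at 657, 858 and 902 in the knockouts. All 3 knockout values lay inside the control range. Knockouts and controls differed by 0.0058 ± 0.17 (SE) on the log2 scale, with a 95% interval from -0.33 to 0.34 (DESeq2 adjusted p = 0.996).

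Gpr37l1 (ENSMUSG00000026424, chromosome 1, 135160234 to 135167681, minus strand) encodes an orphan G protein-coupled receptor of glia. It was at 415, 540 and 365 normalized counts in the controls and at 285, 390 and 419 in the knockouts. Knockout replicate 1 was the lowest library and control replicate 2 the highest, and the other 4 values lay between 365 and 419. A log2 fold change of -0.27 ± 0.21 (SE) was fitted, with a 95% interval from -0.68 to 0.14 (DESeq2 adjusted p = 0.714).

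Another 3 members are proteins of the cytoplasm. S100b (ENSMUSG00000033208, chromosome 10, 76253853 to 76261159, plus strand) encodes a calcium-binding protein used as a general marker of Schwann cells. The controls held 254, 271 and 229 normalized counts and the knockouts 163, 261 and 245. Knockout replicate 1 lay below all others, and the remaining knockouts lay inside the control range. On the log2 scale the fold change was -0.17 ± 0.23 (SE, 95% interval -0.61 to 0.27, DESeq2 adjusted p = 0.886).

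Gfap (ENSMUSG00000020932, chromosome 11, 102887336 to 102900912, minus strand) encodes the glial intermediate filament protein of the peri-islet sheath, also used as a marker of stellate cells. It had the largest point estimate of the 8. The controls were at 182.5, 259 and 189 normalized counts and the knockouts at 185, 283 and 447. Knockout replicate 1 was level with the lower controls, and knockout replicate 3 was the highest library. Means were 210 ± 42.6 and 305 ± 132 (SD, n = 3 each). The log2 fold change of 0.54 ± 0.30 (SE) had an interval from -0.05 to 1.12 and did not pass (DESeq2 adjusted p = 0.517). Without knockout replicate 3 it was 0.15.

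Cryab (ENSMUSG00000032060, chromosome 9, 50751325 to 50756636, plus strand) encodes alpha-B crystallin, a small heat shock protein of Schwann cells that many other cell types also make. The controls held 962, 1154 and 856 normalized counts and the knockouts 990, 1044 and 1137. All 3 knockout values lay inside the control range. Its log2 fold change was 0.09 ± 0.14 (SE, 95% interval -0.17 to 0.36, DESeq2 adjusted p = 0.907). Its exons share 252 bases with Hspb2 on the opposite strand, and the strand setting of the counting is not given in the sources used here. The effect of this overlap on the Cryab counts was not tested.

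Mbp (ENSMUSG00000041607, chromosome 18, 82475146 to 82585637, plus strand) encodes myelin basic protein, which compacts the myelin membrane. The same locus also makes golli transcripts, which are expressed outside glia, and the gene-level counts pool all 16 annotated transcripts. It was the steadiest member, at 9169, 10374 and 11335 normalized counts in the controls and at 10004, 10174 and 11021 in the knockouts. All 3 knockout values lay inside the control range. Its log2 fold change of 0.01 ± 0.09 (SE) had the narrowest interval of the 8, from -0.17 to 0.20, which leaves a fall of more than 11.0% or a rise of more than 14.7% outside it (DESeq2 adjusted p = 0.982).

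**Figure D1:**
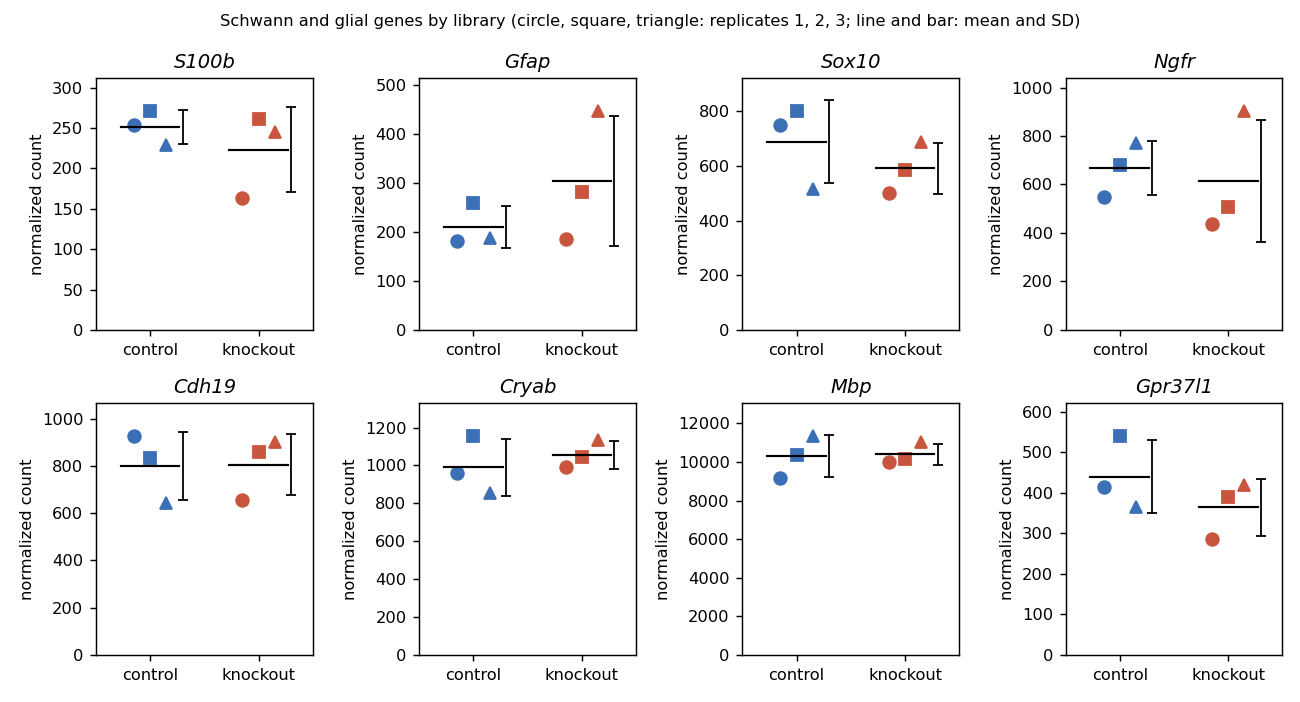
Normalized counts (vertical axes, each from 0) of the 8 genes in the 3 control and 3 knockout libraries, with replicates 1, 2 and 3 as circle, square and triangle and the group mean and SD in black. The groups overlap in every panel, and knockout replicate 1 is the lowest library for S100b, Sox10, Ngfr and Gpr37l1.

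**Figure D2:**
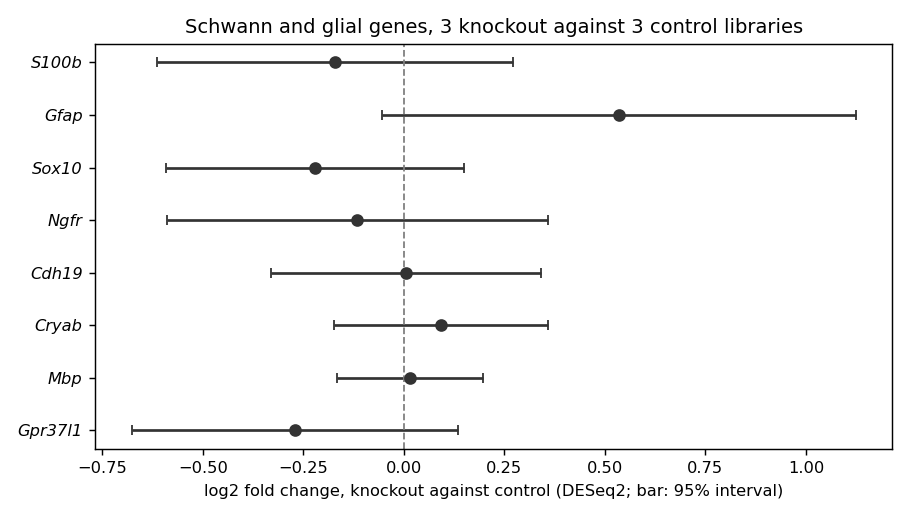
Log2 fold change of knockout against control (horizontal axis) with its 95% interval from DESeq2 for the 8 genes (vertical axis). Every interval includes 0, with Gfap the farthest to the right at 0.54 and Mbp the narrowest.

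The members' levels differed between libraries of 1 genotype. When each gene was set against its own mean on the log2(normalized count + 1) scale, all 8 members were below their mean in knockout replicate 1, where 49.8% of the 15811 genes were. All 8 were above their mean in knockout replicate 3, as were 49.8% of those genes, and all 8 in control replicate 2, as were 48.4%. Averaged over the members, knockout replicate 1 lay at -0.32, knockout replicate 2 at 0.009 and knockout replicate 3 at 0.27. Control replicates 1 to 3 lay at -0.02, 0.18 and -0.11. The step from knockout replicate 1 to 3 was thus 1.50-fold, while the mean of the knockouts minus that of the controls was -0.03 on the log2 scale. These 2 values are unlike measures: the step joins the lowest and highest of 3 single libraries, and the difference is between means of 3. Fold changes of opposite sign also cancel in the difference. No conclusion on genotype is drawn from the 2. Without Mbp and Cryab the step from knockout replicate 1 to 3 was 1.65-fold and the difference between genotypes -0.06. These 2 members were the least low in knockout replicate 1, at -0.045 and -0.041, so leaving them out enlarges the step. Each member has the same weight in the mean, whatever its abundance. The genes of the set are each measured in the same 6 libraries, so these counts are a description.

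Within groups, 7 of the 8 members varied more than most genes, and Mbp did not. The median within-group SD over the 15811 genes was 0.12 on the log2 scale. Gfap, at 0.49, exceeded 95.05% of them and Ngfr, at 0.43, exceeded 92.5%. Sox10, Gpr37l1, S100b and Cdh19 had SDs of 0.29, 0.29, 0.27 and 0.26, above 79.9% or more of the genes. Cryab, at 0.17, exceeded 64.6% and Mbp, at 0.12, 48.5%. The most alike pair of profiles was S100b and Gpr37l1, whose centred log2 values differed by a root mean square of 0.13 over the 6 libraries, and Sox10 and Gpr37l1 also differed by 0.13. Gfap and Sox10 were the least alike, at 0.44.

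**Figure D3:**
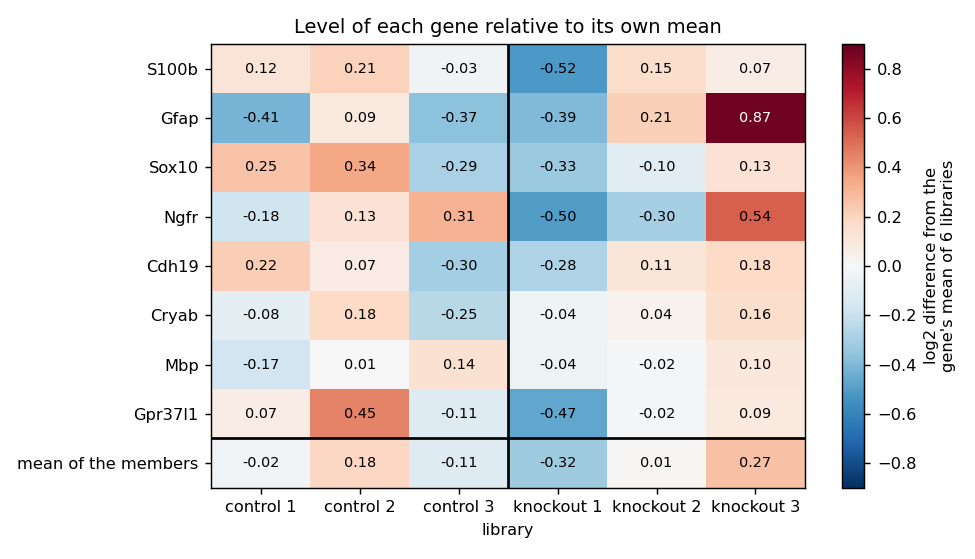
Log2 level of each gene (rows) relative to its mean over the 6 libraries (columns), with the mean of the 8 genes in the bottom row. Red is above and blue below the gene's mean, and the column of knockout replicate 1 is below 0 in every row while that of knockout replicate 3 is above 0 in every row.

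Other Schwann cell and peripheral neuron genes were also mostly low in knockout replicate 1. Myelin genes were closer to the share of all genes, and the glial regulators were only 3. The difference between these lists was not tested. Of 17 further Schwann cell genes averaging 50 or more normalized counts, 16 were below their own mean in knockout replicate 1 and 9 had their lowest value there, against 14.7% of all genes. Of 11 markers of peripheral neurons, 10 were below their mean in knockout replicate 1 and 10 were above it in knockout replicate 3. Summed over 13 neuron markers, knockout replicates 1 to 3 held 14688, 16762 and 25508 normalized counts, while the 3 controls held 18707, 20857 and 23699. Vip, a peptide of parasympathetic neurons and the most abundant neuron marker, stood at 3273, 2554 and 7804 in the knockouts and at 2649, 5134 and 4812 in the controls. Neither Vip (DESeq2 adjusted p = 0.979, with a log2 fold change of 0.11 and an SE of 0.54) nor any other neuron marker passed the threshold. Of 12 myelin genes, 7 were below their mean in knockout replicate 1, a share of 58.3% beside 49.8% of all genes, with 3 at their lowest and 3 at their highest there. Of 3 glial lineage regulators, 1 was below its mean in it. Of 10 small heat shock and HSF1 genes, which are not nerve genes, 9 were below. Of the 8 fibroblast markers, 7 were above their mean in that library, 7 in knockout replicate 2 and 6 in knockout replicate 3. The part of neuron or fibroblast content in the members' levels was not tested.

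By the measure of likeness, the root mean square difference of centred log2 profiles over 6 libraries, the genes nearest to the mean of the 8 members were Enpp1 (0.033), Cd9 (0.058), Chrnb4 (0.063), Smim17 (0.064) and Gm49027 (0.066). Chrnb4 encodes a nicotinic acetylcholine receptor subunit of autonomic neurons, but Enpp1 and Cd9 were nearer. None of Enpp1, Cd9, Chrnb4, Smim17 and Gm49027 was among the peripheral neuron markers used above. A link of these profiles to nerve content was not tested. For S100b the nearest were Scn2b, Syt1 and C1ql2, at 0.062 to 0.063. The nearest to Ngfr were Kcna4, Apobr and Rims4, at 0.087 to 0.092. Cdh19 had Rtn4rl2, Akap5 and Akr1b8 within 0.057, and Sox10 had Gm3604, Syde1 and Gm10157 within 0.081. Gpr37l1 was nearest to 1010001B22Rik, Gm30074 and Adam5, up to 0.070. Cryab was nearest to Kank2, Tmem86b and Galnt16, up to 0.050, and Mbp to Tomm5, Gm12576 and Fam183b, up to 0.027. The genes nearest to Gfap, Pcdhb22, Gstt3 and Rnf165, differed from it by 0.16 to 0.19. This measure is not scaled to how widely a gene varies. Within groups Gfap varied most of the 8 (SD 0.49) and Mbp least (SD 0.12), so the distances of different members are not compared.

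The wider glial program was compared next. Among 8 regulators of the glial lineage, 0 of the 5 given an adjusted p passed (1, downward, without control replicate 3), and the median log2 fold change over 7 fitted genes was 0.12. Nab1, a cofactor of the myelin regulator EGR2, was the most abundant, at 2604 ± 16.0 and 2836 ± 61.9 normalized counts (SD, n = 3 each, DESeq2 adjusted p = 0.571). Among 15 myelin genes, 1 of 13 passed, upward (1 upward and 1 downward without control replicate 3), and the median over the 15 was -0.08. Pmp22, a membrane protein of compact peripheral myelin and the most abundant of the list, was at 3144 ± 109 and 3019 ± 419 (adjusted p = 0.937). Among 18 other Schwann cell genes, 0 of 17 passed in either direction (1, upward, without control replicate 2 and without control replicate 3), and the median was -0.10. Ncam1, an adhesion molecule that endocrine cells also express, was the most abundant at 20024 ± 1248 and 18447 ± 1240 (adjusted p = 0.657).

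Gjb1, which encodes a connexin, the gap junction protein of myelinating Schwann cells that acinar cells also make, was the myelin gene that rose. It stood at 121, 213 and 199 normalized counts in the controls and at 603, 340 and 236 in the knockouts, or 1.14 ± 0.33 (SE) higher on the log2 scale (DESeq2 adjusted p = 0.0266). Every knockout library was above every control, by a narrow margin for knockout replicate 3. Summed acinar markers, given above, were also higher in every knockout library, and their part in this result was not tested. The gene is X-linked. Gjb1 did not pass in edgeR (adjusted p = 0.340), with the replicate number added as a block, or in 4 of the 6 fits that left out a library. Over its alternatives the adjusted p ran from 0.00477 to 0.559.

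Of the signals that Schwann cells receive, none of the 7 genes of the neuregulin pathway passed, and 6 of the 7 point estimates were positive (median 0.10). Erbb3, the neuregulin receptor of Schwann cells, was the most abundant, at 1544 ± 79.8 and 1654 ± 108 normalized counts (SD, n = 3 each, DESeq2 adjusted p = 0.818). Among 9 genes of the neurotrophin pathway, 0 of 8 passed and the median was -0.14. The most abundant was Sort1, the sortilin coreceptor, at 35938 ± 2040 and 34914 ± 1444 (adjusted p = 0.929). Among 8 genes of the GDNF family pathway, 1 of 7 passed, upward, with a median of -0.23. Without control replicate 3, and again without knockout replicate 3, 1 gene of this list passed downward. Gfra3, a receptor for artemin, is counted both there and among the Schwann cell genes.

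Nrtn, which encodes the GDNF family ligand neurturin, a survival factor of parasympathetic neurons, was the gene that rose. It was at 871, 857 and 1068 normalized counts in the controls and at 1403, 1124 and 1708 in the knockouts, with no overlap. Its log2 fold change was 0.60 ± 0.16 (SE, DESeq2 adjusted p = 0.0146). Its call was lost in edgeR (adjusted p = 0.283) and in 4 of the 6 fits that left out a library, and over 12 alternatives the adjusted p ran from 0.000634 to 0.283. Ret, the shared signalling receptor and the most abundant of the list, was level at 22083 ± 1392 and 21860 ± 1355 (adjusted p = 0.982).

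Because Cryab is also a small heat shock gene, that family and its chaperone partners were set beside it. Among 12 genes, 1 of 10 passed, downward, and the median log2 fold change was -0.14. Dnajb1, a cochaperone of HSP70, fell from 5052, 5063 and 3768 normalized counts in the controls to 3352, 3320 and 3117 in the knockouts. Its fold change was -0.50 ± 0.12 (SE) on the log2 scale (DESeq2 adjusted p = 0.00261). The call was lost in edgeR (adjusted p = 0.196) and without control replicate 1, control replicate 2 or knockout replicate 3. Hsph1, the most abundant, was at 13254 ± 1756 and 11487 ± 671 (adjusted p = 0.416). Cryab did not pass the threshold in either direction.

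**Figure D4:**
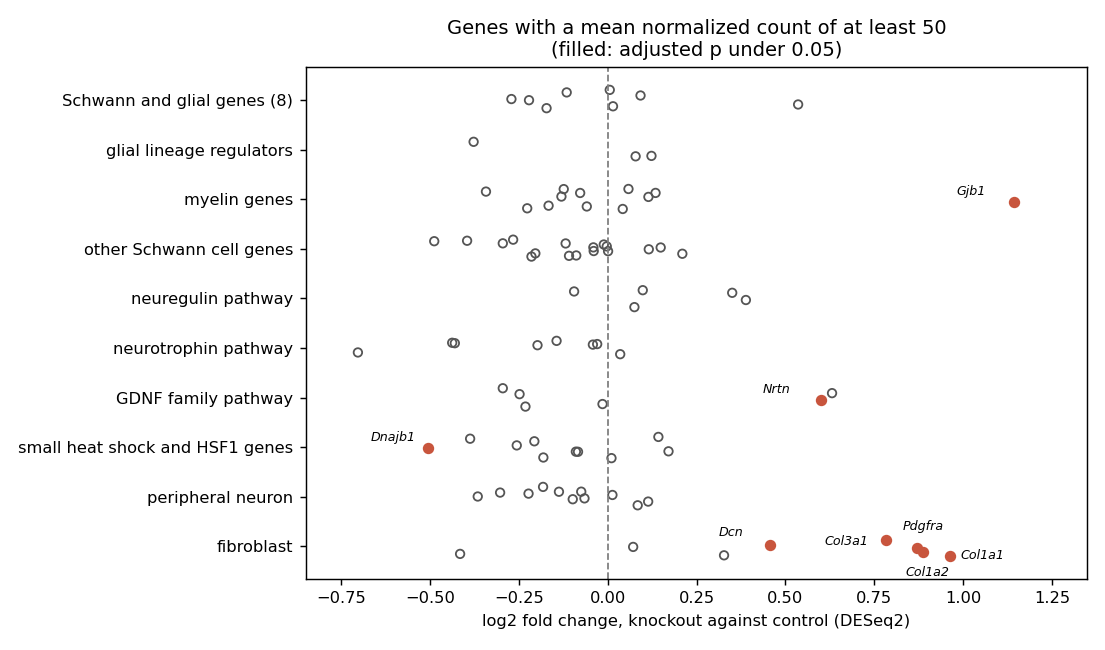
Log2 fold change of knockout against control (horizontal axis) for genes averaging 50 or more normalized counts in the 8-gene set and in each list (vertical axis, points spread vertically for legibility). Filled points passed the adjusted p of 0.05 in DESeq2. None of the 8 is filled, and among the glial and signalling lists only Gjb1, Nrtn and Dnajb1 are.

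Markers of other cells gave the setting. Of 8 fibroblast genes 5 passed, all upward (Col1a1, Col1a2, Col3a1, Dcn and Pdgfra), with a median log2 fold change of 0.62, and 3 of them also passed in edgeR. Of 5 alpha-cell genes 3 passed, all downward (Gcg, Irx2 and Ttr), but 0 passed in edgeR, 0 without knockout replicate 1, 0 without knockout replicate 3 and 1 without control replicate 2. A single gene each passed among the macrophage (Cd68), adipocyte (Fabp4) and duct (Krt7) lists, upward, and among the beta-cell genes (Nkx6-1), downward. Each of these 4 calls was lost in edgeR, without control replicate 1 and without knockout replicate 1, and each also in at least 1 other fit that left out a library. None passed among the peripheral neuron, central glia, melanocyte, pericyte and smooth muscle, endothelial, lymphocyte, skeletal muscle, acinar and delta-cell lists, although all 6 acinar genes had an unadjusted p under 0.05 and all 6 passed, upward, without control replicate 2. When 1 library was left out, 1 peripheral neuron gene passed, downward, without knockout replicate 1 and without knockout replicate 3. Likewise 1 pericyte and smooth muscle gene passed, downward, without control replicate 1, and 1 delta-cell gene, downward, without knockout replicate 2. The most abundant genes of these 9 lists, Vip, Aqp4, Mitf, Rgs5, Plvap, Cd79a, Mylpf, Pnlip and Sst, had DESeq2 adjusted p-values from 0.0775 (Pnlip) to 0.979 (Vip). Summed over 5 markers of melanocytes, which share the SOX10 lineage, normalized counts ran from 1502 to 1898 in the controls and from 1622 to 1737 in the knockouts. Only 2 of these 5 averaged 50 or more, with Mitf the most abundant, so the sum rests on few genes.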

How the data were processed

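The deposited table holds counts of reads per gene, without normalization, for 6 islet libraries. The authors' tools named in the submitters' processing notes are FastQC, STAR, featureCounts and DESeq2, with the build mm10. Versions and strand setting are not given in the sources used here. Even numbers made up 84.3% to 87.3% of counts from 1 to 20 in each library, as when both mates of a pair are counted, so counting error is larger than the counts imply. All 55536 identifiers matched GENCODE M21 (GRCm38), from which coordinates and exon lengths come.

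The main test was DESeq2 1.42.0 in R 4.3.3 on genes with at least 10 counts in total, with genotype as the single term, as the series' design text describes, unshrunken fold changes and a Benjamini-Hochberg threshold of 0.05. Alternatives were edgeR 4.0.16, TMM factors, other filters, autosomal genes only, a replicate block and each library left out. Scripts were tested on simulated data. The statistic of a chi-square test between replicates was at least 40.0 times its degrees of freedom, so each library was counted separately. Named genes were the 8 members, from each list the called genes and the most abundant, and the nearest profiles. The members and lists were chosen with earlier results of these data known.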

Additional observations from a re-analysis of the deposited data

How the results depend on the processing

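None of the 8 genes passed the threshold in any of the 12 alternatives. Across the fits that left out 1 library, log2 fold changes ran from -0.30 to 0.010 for S100b, 0.15 to 0.79 for Gfap, -0.39 to -0.10 for Sox10, -0.50 to 0.078 for Ngfr, -0.13 to 0.13 for Cdh19, -0.0020 to 0.22 for Cryab, -0.063 to 0.090 for Mbp and -0.39 to -0.097 for Gpr37l1. Sign changes occurred only in these fits, for S100b, Ngfr, Cdh19, Cryab and Mbp. S100b was 0.010 without knockout replicate 1.

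Over all genes, 389 passed, 272 higher and 117 lower in the knockouts. The edgeR quasi-likelihood test gave 29, 24 of them higher, and leaving out 1 library gave 153 (without knockout replicate 1) to 952 (without control replicate 3). Over the glial, signalling and heat shock lists 3 genes passed, 0 in edgeR and 0 to 7 when 1 library was left out, with 0 without control replicate 1, 7 without control replicate 3 and 1 without knockout replicate 1. Over the marker lists 12 passed, 3 in edgeR and 7 to 14 when 1 library was left out. Leaving out knockout replicate 1 or knockout replicate 3 gave 7. The cause was not tested.

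With the replicate number as a block 405 genes passed and 0 of the 8 members. Under it Gjb1, Cd68 and Nkx6-1 no longer passed, and 1 macrophage gene passed, lower in the knockouts. With the block 6 of 6 acinar genes passed, all higher, against 0 without it. Same-numbered libraries did not deviate together, with correlations of -0.048, -0.059 and 0.0105 over 15811 genes. The 8 genes held from 173 (S100b) to 11044 (Mbp) deposited counts in a library, and counting error alone was not separated from the spread between libraries.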
